A study of Caenorhabditis elegans with 6 samples.

Results

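The lipid-binding protein genes *lbp-1* to *lbp-9* of *Caenorhabditis elegans* were taken by gene name from the deposited RNA-seq tables, and all 9 were measured among 20661 genes. They encode the worm's members of the fatty acid binding protein family, small barrel-shaped proteins that hold a single fatty acid or similar lipid in an inner cavity and carry it through a watery compartment. Some members stay inside the cell, where they deliver lipids to membranes, enzymes and nuclear hormone receptors. Others carry a signal for secretion and move lipids between tissues. In *C. elegans*, where fat is stored largely in the intestine and the hypodermis, such carriers link lipid breakdown to transcription: LBP-8 takes a lipid signal from the lysosome to the nucleus, and the receptors NHR-49 and NHR-80 act with it.

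The libraries came from 3 strains: *daf-16(mgDf50);daf-2(e1370)*, written *daf-16(−);daf-2(−)* and called the double mutant here, *daf-2(e1370)*, written *daf-2(−)*, and wild type N2, written WT. The receptor DAF-2 starts the insulin/IGF-1-like signalling (IIS) pathway, and both mutants carry the same *daf-2* allele, so signalling is lowered in both. DAF-16 is the FOXO transcription factor that this pathway holds in check, and it is deleted in the double mutant only. Cultures of mixed developmental stage were kept at 20 °C on OP50 bacteria, and whole worms were used, with 2 replicates per strain. Nothing in the labels says that the replicates were separate cultures, so each p measures only the spread between these samples, which may be technical. In whole worms, fewer cells of a type and less RNA per cell cannot be told apart.

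Values are RPKM, read numbers divided by the exon length of the gene and the mapped reads of the library, so that levels of different genes can be compared within a library. The tables hold no counts, so no counting error could be attached to a value. *daf-16* was listed at 6.44 and 4.60 RPKM in the double mutant, 25.2 and 22.4 RPKM in *daf-2(−)* and 24.9 and 29.4 RPKM in WT, lowest in the strain labelled as its deletion. Replicates of a strain differed by a median of 0.20 to 0.24 on the log2 scale over 14395 genes with a mean of at least 1 RPKM. The median gene of that set differed by -0.28 on the log2(RPKM + 1) scale in *daf-2(−)* against WT, by 0.34 in the double mutant against *daf-2(−)* and by 0.10 in the double mutant against WT. Marker genes of cell types also moved with strain. Summed over 7 intestinal markers, RPKM ranged over 3103 to 4361 in the double mutant, 5743 to 6802 in *daf-2(−)* and 4509 to 5282 in WT, and over 6 body-wall muscle markers over 1797 to 2132 in the double mutant, 3131 to 3345 in *daf-2(−)* and 2028 to 2060 in WT. Of these markers only the intestinal esterase gene *ges-1* passed both the fold and p thresholds given below. It rose in *daf-2(−)* against WT and fell in the double mutant against *daf-2(−)*. Others passed the p alone, such as *unc-27* and *lev-11* at 0.71 and 0.77 on the log2 scale in *daf-2(−)* against WT. The median in that comparison was 0.21 over the intestinal and 0.59 over the muscle markers. The protease gene *asp-1* made up most of the intestinal sum. Summed over 6 hypodermal markers, RPKM ranged over 2488 to 2560 in the double mutant, 3789 to 3861 in *daf-2(−)* and 1324 to 2173 in WT, a sum carried by the collagen gene *col-19* (3321 and 3436 RPKM in *daf-2(−)*). The other hypodermal markers did not follow it: *dpy-7* and *sqt-3* fell in *daf-2(−)* against WT, at -1.54 and -1.21 on the log2 scale, while *col-19* rose, and the median of the 6 was -0.87. No marker of these 3 lists was at 0 in any library. Of the 6 oocyte and yolk markers, 4 fell in *daf-2(−)* against WT and 4 rose in the double mutant against *daf-2(−)*. None of the 6 sperm markers passed both thresholds in either. *gsp-3* and *gsp-4* passed the p alone in *daf-2(−)* against WT, at 0.89 and 0.77. Of 6 early embryo markers, 1 fell in the first comparison and 1 rose in the second. Of 6 dauer markers, 2 rose and 1 fell in the first, and 2 rose and 2 fell in the second. *col-40* (4.34, then -3.84) and *cut-1* (1.97, then -1.85) rose, then fell, and *dod-17* (-1.73, then 1.99) went the other way. Over all genes, 4.84% rose and 7.77% fell in the first comparison, and 15.8% rose and 5.65% fell in the second. The part of these marker differences between strains in the values of the *lbp* genes was not tested.

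The 9 genes lie on 3 chromosomes in the WBcel235 annotation, which served here for names, lengths and gene order only, since the tables were made on another release. *lbp-3*, *lbp-1* and *lbp-2* follow each other on the same strand of chromosome X with 0 protein-coding genes between neighbours. They encode proteins of 150 to 165 residues and are the members with a signal for secretion, resembling a lipid carrier of the fluid around the embryo in the roundworm *Ascaris*. *lbp-5* and *lbp-6* lie on chromosome I on the same strand with 1 protein-coding gene between them. *lbp-7* and *lbp-8* lie on chromosome V with 3 between them, and *lbp-4* and *lbp-9* lie elsewhere on the same chromosome. These 6 encode proteins of 135 to 152 residues. In *lbp-6*, 6.64% of the exon bases overlap *mec-6*, and in *lbp-9* 0.887% overlap Y40B10A.9. Whether reads were counted by strand is not given in the sources used here, so reads from those bases cannot be assigned to one gene of the pair.

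The family was abundant and its members were expressed at very unequal levels. *lbp-6* ranked between the 73rd and the 161st most abundant gene over the 6 libraries, *lbp-2* between 118 and 170 and *lbp-9* between 258 and 528. *lbp-8* was the weakest member in every library, with ranks between 2889 and 8088. The summed RPKM of the 9 genes was 2825 and 3816 in the double mutant, 5575 and 5544 in *daf-2(−)* and 3752 and 4206 in WT. This sum was 3321 ± 701 in the double mutant, 5559 ± 21.8 in *daf-2(−)* and 3979 ± 322 in WT (SD, n = 2 each), so that both *daf-2(−)* libraries lay above the 4 others, while the double mutant and WT overlapped.

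**Figure D1:**
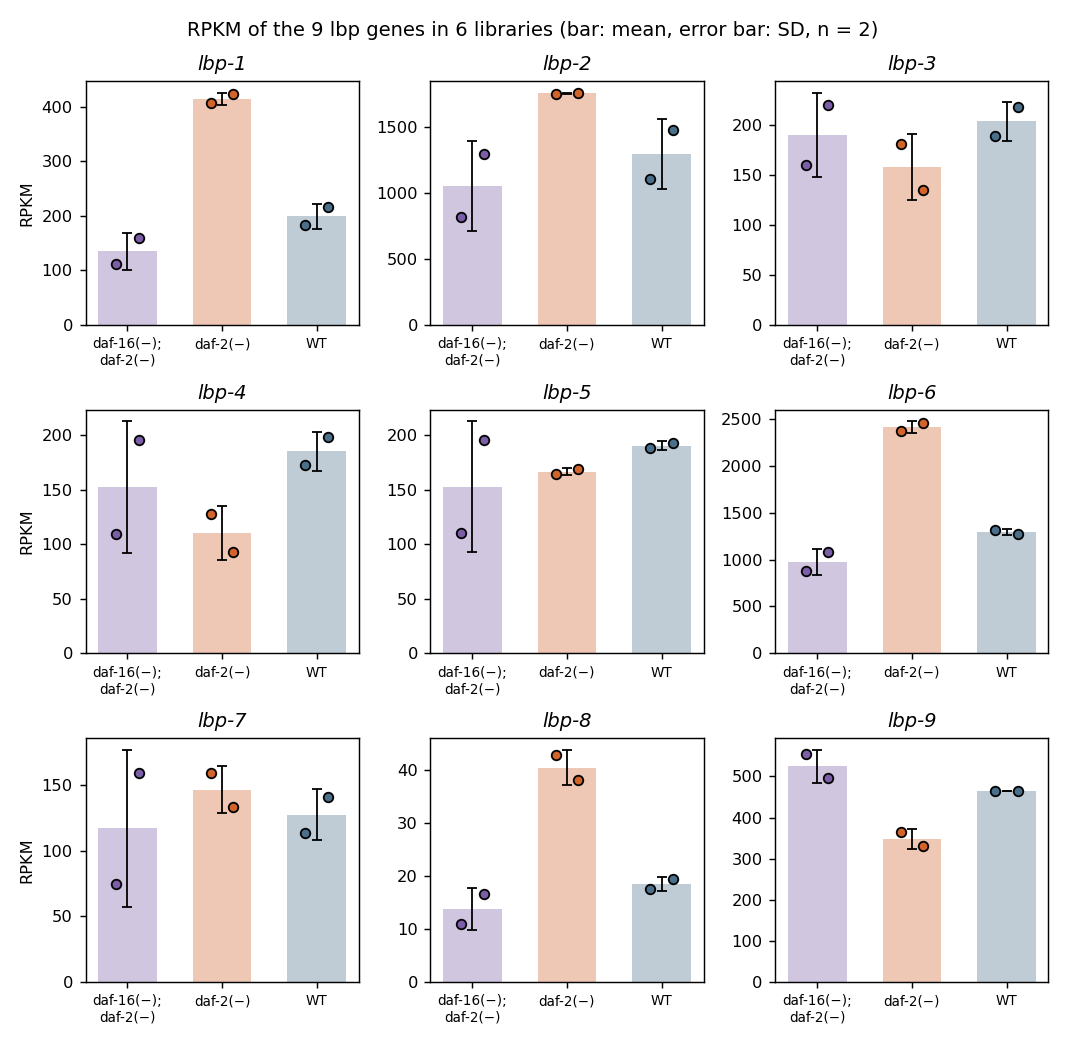
RPKM of each *lbp* gene (vertical axis, from 0) in the double mutant, *daf-2(−)* and WT; points are the 2 libraries of a strain, bars their mean and error bars the SD. *lbp-1*, *lbp-6* and *lbp-8* are high in *daf-2(−)* and lower in the double mutant and WT, while *lbp-9* runs the other way.

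*daf-2(−)* was compared with WT to see which family members change when IIS is lowered. A gene was called at a fold change of at least 2 and an unadjusted p of at most 0.05 in limma fitted over all genes, and Benjamini-Hochberg adjusted p-values over the 20661 genes are given beside. *lbp-1* and *lbp-8* rose, no member fell by that rule, and *lbp-6* passed the p but not the fold. Thus 2 of 9 members were called higher, where 4.84% of all genes were, and 0 of 9 were called lower, where 7.77% of all genes were. All genes include weak ones that the pseudocount keeps from large fold changes. A fit of only the 14395 genes with a mean of at least 1 RPKM called 935 higher and 1586 lower. With the adjusted p at that level in place of the unadjusted p, the members counted were 2 and 0 again (4.54% and 7.14% of all genes).

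*lbp-8*, whose product carries the lysosomal lipid signal, was listed at 10.95 and 16.6 RPKM in the double mutant, 43.0 and 38.2 RPKM in *daf-2(−)* and 17.6 and 19.5 RPKM in WT. Both *daf-2(−)* libraries lay far above the other 4, and both double mutant libraries lay below both WT libraries. The log2 fold change in *daf-2(−)* against WT was 1.09 with an SE of 0.22, a 2.13-fold rise (limma, adjusted p = 0.0162).

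*lbp-1*, one of the secreted members, was listed at 111 and 159 RPKM in the double mutant, 406 and 422 RPKM in *daf-2(−)* and 182 and 215 RPKM in WT. The 3 strains did not overlap, with *daf-2(−)* highest and the double mutant lowest. The log2 fold change in *daf-2(−)* against WT was 1.06 with an SE of 0.19, a 2.08-fold rise (limma, adjusted p = 0.0131). The call was lost under quantile normalization, at 0.80, and without WT replicate 1, at 0.94, both short of the fold threshold.

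*lbp-6*, the most abundant member in *daf-2(−)*, was listed at 880 and 1077 RPKM in the double mutant, 2374 and 2462 RPKM in *daf-2(−)* and 1315 and 1276 RPKM in WT. The strains did not overlap here either. In *daf-2(−)* against WT its log2 fold change of 0.90 with an SE of 0.16 was a 1.87-fold difference (limma, adjusted p = 0.0127), larger than the spread between replicates but short of the fold threshold. Scaling the libraries by median ratio put it at 1.20, past that threshold.

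*lbp-2*, the secreted gene next to *lbp-1*, was listed at 815 and 1297 RPKM in the double mutant, 1754 and 1760 RPKM in *daf-2(−)* and 1107 and 1481 RPKM in WT. The *daf-2(−)* libraries were highest, but replicates of the other strains were spread widely, and the log2 fold change of 0.46 in *daf-2(−)* against WT (SE 0.25) did not pass (limma, adjusted p = 0.232). Quantile normalization gave -0.03 for it.

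The third gene of the X cluster, *lbp-3*, encodes a secreted carrier that takes a fatty acid from fat tissue to neurons. It was listed at 160 and 221 RPKM in the double mutant, 182 and 135 RPKM in *daf-2(−)* and 190 and 218 RPKM in WT. The *daf-2(−)* libraries lay below both WT libraries and one of them within the range of the double mutant. Its log2 difference between *daf-2(−)* and WT was -0.38, with a 95% interval of -0.88 to 0.13.

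*lbp-9* had 554 and 497 RPKM in the double mutant, 365 and 331 RPKM in *daf-2(−)* and 465 and 464 RPKM in WT, the order opposite to that of *lbp-6*. The strains did not overlap. In *daf-2(−)* against WT its log2 fold change of -0.42 (SE 0.13) had an unadjusted p of 0.0174 and an adjusted p of 0.0605 in limma, well short of the fold threshold. Relative to the median gene the difference was -0.14.

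*lbp-4* was listed at 110 and 195 RPKM in the double mutant, 128 and 93.2 RPKM in *daf-2(−)* and 173 and 198 RPKM in WT. Both *daf-2(−)* libraries lay below both WT libraries, while the double mutant covered almost the whole range of the other strains. The log2 fold change in *daf-2(−)* against WT was -0.76 with an SE of 0.29 and did not pass the fold threshold (limma, unadjusted p = 0.0336, adjusted p = 0.0942).

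*lbp-5*, linked to NHR-49 in fat metabolism, was listed at 110 and 195 RPKM in the double mutant, 164 and 169 RPKM in *daf-2(−)* and 188 and 193 RPKM in WT. *lbp-7* was listed at 74.6 and 159 RPKM in the double mutant, 159 and 134 RPKM in *daf-2(−)* and 114 and 141 RPKM in WT. For both genes the 2 double mutant libraries stood further apart than those of the other strains. In *daf-2(−)* against WT, the 95% interval of the log2 difference was -0.79 to 0.40 for *lbp-5* and -0.59 to 0.99 for *lbp-7*. The interval of *lbp-7* reaches almost to the fold threshold.

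Across the 9 members, the median log2 fold change in *daf-2(−)* against WT was 0.20, where it was -0.28 over all genes of at least 1 RPKM. The libraries of *daf-2(−)* and WT did not overlap for 8 of 9 members, where 64.5% of all genes did not overlap. Of these, *lbp-1*, *lbp-2*, *lbp-6* and *lbp-8* were higher in *daf-2(−)* and *lbp-3*, *lbp-4*, *lbp-5* and *lbp-9* were lower. Among all 20661 genes, 4553 had both *daf-2(−)* libraries above both WT libraries and 8765 had them below. Relative to the median gene, the 4 lower members differed by -0.10 (*lbp-3*), -0.48 (*lbp-4*), 0.08 (*lbp-5*) and -0.14 (*lbp-9*) on the log2 scale in *daf-2(−)* against WT. An adjusted p of at most 0.05 at any fold was reached by *lbp-1*, *lbp-6* and *lbp-8*, 3 of 9 members, where 25.8% of all genes reached it.

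**Figure D2:**
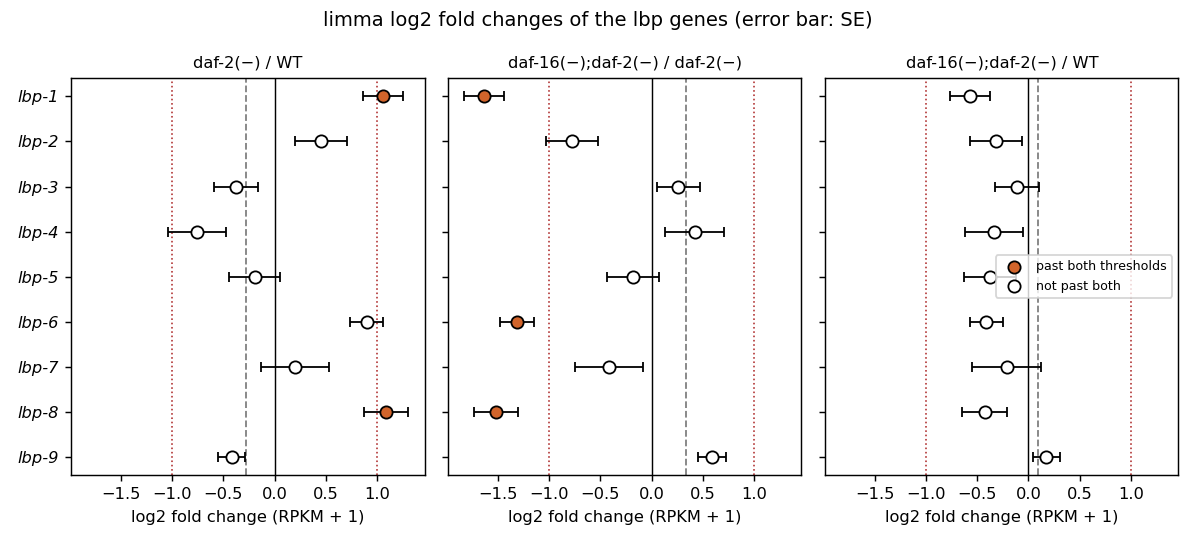
Log2 fold change on the log2(RPKM + 1) scale (horizontal axis) of each *lbp* gene in *daf-2(−)* against WT, the double mutant against *daf-2(−)* and the double mutant against WT, with the SE of limma as error bar. Filled points passed the fold and p thresholds, dotted lines mark the 2-fold threshold and the dashed line the median of all genes, and the filled points are *lbp-1* and *lbp-8* at left and *lbp-1*, *lbp-6* and *lbp-8* in the middle.

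The double mutant was compared with *daf-2(−)* to see which of these levels change when DAF-16 is absent under lowered IIS. This comparison shares the *daf-2(−)* libraries with the one above, so the values of a gene in the 2 comparisons are not independent. *lbp-1*, *lbp-6* and *lbp-8* fell and no member rose. Thus 3 of 9 members were called lower, where 5.65% of all genes were, and 0 of 9 were called higher, where 15.8% of all genes were. A fit of only the 14395 genes with a mean of at least 1 RPKM called 1100 lower and 3209 higher. With the adjusted p in place of the unadjusted p, the members counted were 3 and 0 again (5.46% lower and 15.5% higher among all genes).

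In the double mutant against *daf-2(−)*, *lbp-1* had a log2 fold change of -1.63 with an SE of 0.19, leaving 0.323 of the *daf-2(−)* level (limma, adjusted p = 0.00198). *lbp-8* had a log2 fold change of -1.52 with an SE of 0.22, leaving 0.349 of that level (limma, adjusted p = 0.00285). *lbp-6* had a log2 fold change of -1.31 with an SE of 0.16, leaving 0.403 of it (limma, adjusted p = 0.00207). In all 3 genes both double mutant libraries lay below both *daf-2(−)* libraries. The values for *lbp-1* and *lbp-8* passed the thresholds of fold and unadjusted p under all 16 alternative settings, and *lbp-6* was at -0.97 under quantile normalization.

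As RPKM, *lbp-9* was the only member with both double mutant libraries above both *daf-2(−)* libraries, which 43.3% of all genes showed. Its log2 fold change was 0.59 with an SE of 0.13, a 1.51-fold difference (limma, adjusted p = 0.0137), larger than the spread between replicates but below the fold threshold. Relative to the median gene *lbp-9* differed by 0.26. After median-ratio scaling it differed by 0.16 (limma, unadjusted p = 0.341), and the strains then overlapped, with 504 and 420 in the double mutant and 399 and 422 in *daf-2(−)*. For *lbp-2*, both double mutant libraries lay below both *daf-2(−)* libraries, as for the 3 called genes, 4 members in all (19.9% of all genes). Its log2 fold change of -0.77 had an SE of 0.25 (limma, adjusted p = 0.0528), and it was -1.11 without double mutant replicate 2 and -0.44 without double mutant replicate 1.

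The remaining 4 members overlapped between the double mutant and *daf-2(−)*. Their log2 differences had 95% intervals of -0.24 to 0.77 for *lbp-3*, -0.26 to 1.10 for *lbp-4*, -0.77 to 0.41 for *lbp-5* and -1.20 to 0.38 for *lbp-7*. An adjusted p of at most 0.05 at any fold was reached by 4 of 9 members, where 35.9% of all genes reached it. The median over the 9 members was -0.41, where that of all genes was 0.34.

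Against WT, the double mutant shares its libraries with the second comparison and the WT libraries with the first. None of the 9 members was called higher or lower, where 1.42% of all genes were higher and 0.736% were lower, and 0.116% and 0.0387% with the adjusted p. The log2 fold changes were -0.57 for *lbp-1* (SE 0.19, adjusted p = 0.204 in limma), -0.41 for *lbp-6* (SE 0.16, adjusted p = 0.236) and -0.43 for *lbp-8* (SE 0.22, adjusted p = 0.334). Unadjusted, *lbp-1* had a p of 0.0217 and *lbp-6* one of 0.0386 in limma, and at any fold 0 of 9 members reached an adjusted p of at most 0.05 (0.155% of all genes). Both double mutant libraries lay below both WT libraries for these 3 members (15.9% of all genes) and above them for *lbp-9* alone (32.2% of all genes), whose log2 difference was 0.17 with a 95% interval of -0.14 to 0.49.

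The double mutant replicates differed from each other in these genes. Replicate 1 was lower than replicate 2 for 8 of 9 members, all but *lbp-9*, where 56.2% of all genes of at least 1 RPKM were lower in it. Replicate 1 was also the lower one for 7 of 9 members in WT (60.0% of these genes), and for 4 of 9 in *daf-2(−)* (22.7%). On the log2 scale double mutant replicate 1 was lower by a difference of -1.09 for *lbp-7*, -0.83 for *lbp-4*, -0.82 for *lbp-5* and -0.67 for *lbp-2*. Without that replicate the log2 difference of the double mutant against *daf-2(−)* was -1.37 for *lbp-1*, -1.17 for *lbp-6* and -1.24 for *lbp-8*, and it was 0.13 for *lbp-7* and 0.23 for *lbp-5*.

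The makeup of the family differed between strains. *lbp-6* supplied 31.1% and 28.2% of the summed RPKM in the double mutant, 42.6% and 44.4% in *daf-2(−)* and 35.0% and 30.3% in WT. *lbp-9* supplied 19.6% and 13% in the double mutant, 6.55% and 5.97% in *daf-2(−)* and 12.4% and 11% in WT. The share of *lbp-6* was highest and that of *lbp-9* lowest in both *daf-2(−)* libraries, while *lbp-2* kept a share between 28.8% and 35.2% in all 6 libraries. A share also falls when other members rise. Relative to the median gene, *lbp-9* itself differed by -0.14 on the log2 scale in *daf-2(−)* against WT.

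**Figure D3:**
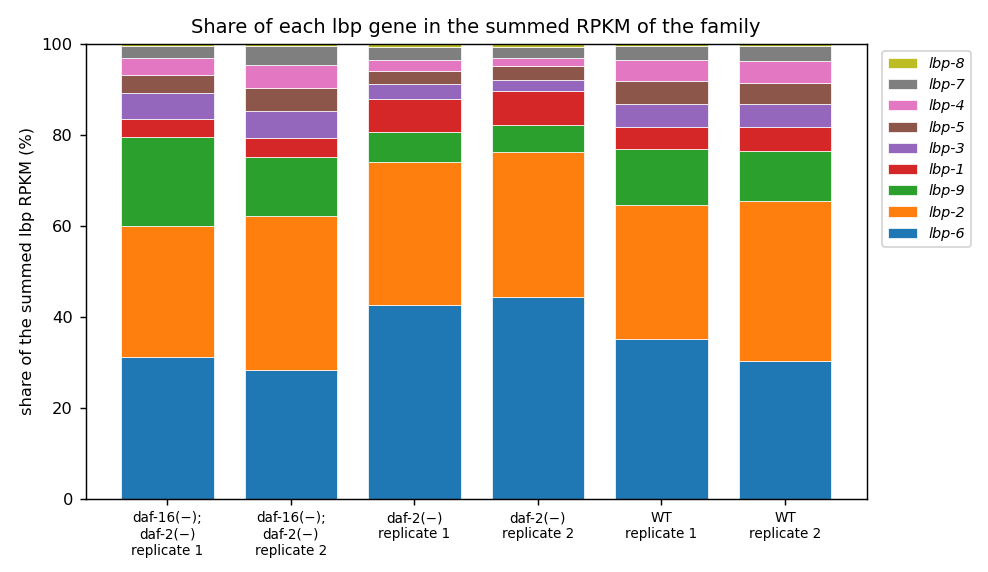
Share of each *lbp* gene in the summed RPKM of the family (vertical axis, %) in each of the 6 libraries, with the double mutant at left, then *daf-2(−)* and WT. *lbp-6* fills 42.6% and 44.4% of the *daf-2(−)* bars, more than in any other library, and *lbp-9* fills 6.55% and 5.97% there.

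Ratios within a library do not change when all its values are multiplied by 1 factor, as in median-ratio scaling, but quantile normalization changes them. The ratio of *lbp-6* to *lbp-9* was 1.59 and 2.17 in the double mutant, 6.5 and 7.44 in *daf-2(−)* and 2.83 and 2.75 in WT. Between the neighbours *lbp-1* and *lbp-3* the ratio was 0.693 and 0.722 in the double mutant, 2.23 and 3.13 in *daf-2(−)* and 0.960 and 0.987 in WT. *lbp-1* thus exceeded its neighbour in *daf-2(−)* libraries only, among the 6. Between the chromosome V neighbours *lbp-8* and *lbp-7* the ratio was 0.147 and 0.104 in the double mutant, 0.270 and 0.286 in *daf-2(−)* and 0.155 and 0.138 in WT. Each of these ratios, for pairs chosen after their values were seen and given as a description with no test, was highest in both *daf-2(−)* libraries.

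The genes whose levels ran most like those of *lbp-8* and *lbp-1* were sought among 8316 genes with a mean of at least 10 RPKM, by the distance between log2(RPKM + 1) profiles centred on their own mean over the 6 libraries. Nearest to *lbp-8* were *ttr-47* and *ttr-23*, which encode transthyretin-like proteins, and *cdr-4*, at distances of 0.079, 0.103 and 0.140. *ttr-47* was listed at 166 and 255 RPKM in the double mutant, 594 and 545 RPKM in *daf-2(−)* and 257 and 291 RPKM in WT. Nearest to *lbp-1* were F52E4.5, R09A1.3 and *cpn-3*, a calponin gene, at distances of 0.169, 0.195 and 0.199. *cpn-3* was listed at 471 and 688 RPKM in the double mutant, 1561 and 1936 RPKM in *daf-2(−)* and 797 and 968 RPKM in WT. These distances rest on the same 6 libraries as the comparisons above and are given with no test.

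Genes of lipid signalling, transport and storage were read in the same fit. Of 7 genes grouped here around LBP-8 and LBP-5 signalling, 1 rose and 0 fell in *daf-2(−)* against WT (4.84% and 7.77% of all genes). In the double mutant against *daf-2(−)*, 1 rose and 1 fell (15.8% and 5.65% of all genes). The one that moved in both was *lipl-4*, the lysosomal lipase that works upstream of LBP-8. It was listed at 0.42 and 0.32 RPKM in the double mutant, 4.07 and 2.61 RPKM in *daf-2(−)* and 0.47 and 1.44 RPKM in WT. Both *daf-2(−)* libraries were highest, at a low level. Its log2 fold change was 1.18 in *daf-2(−)* against WT (SE 0.29, adjusted p = 0.0293 in limma) and -1.64 in the double mutant against *daf-2(−)* (SE 0.29, adjusted p = 0.00561), and the first was 0.93 without *daf-2(−)* replicate 1 and 0.81 without WT replicate 1.

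The receptor gene *nhr-49* was listed at 58.9 and 51.6 RPKM in the double mutant, 54.1 and 45.7 RPKM in *daf-2(−)* and 50.7 and 50.01 RPKM in WT. It was called in neither comparison, and its log2 fold change was -0.02 in *daf-2(−)* against WT and 0.15 in the double mutant against *daf-2(−)*. *nhr-80*, the other receptor that acts with LBP-8, had log2 fold changes of 0.50 and -0.66 in these comparisons and was not called. The receptor gene *nhr-66* rose in the double mutant against *daf-2(−)*, with 30.4 and 24.2 RPKM in the double mutant and 14.4 and 11.5 RPKM in *daf-2(−)*. The log2 fold change was 1.02 (SE 0.19, adjusted p = 0.00698 in limma), and it was 0.61 after median-ratio scaling, 0.50 after quantile normalization, 0.86 without double mutant replicate 1 and 0.87 without *daf-2(−)* replicate 2.

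Of 8 measured NHR-49 target genes, *acs-2*, *fat-5*, *hacd-1* and *fmo-2* rose in *daf-2(−)* against WT, where 4.84% of all genes did. The same genes fell in the double mutant against *daf-2(−)*, where 5.65% of all genes did. The other 4 were not called in either. The median log2 fold changes of the list were 1.14 and -1.26, where those of all genes were -0.28 and 0.34. *fat-5*, a fatty acid desaturase gene, was listed at 14.6 and 20.0 RPKM in the double mutant, 97.3 and 85.2 RPKM in *daf-2(−)* and 7.08 and 15.0 RPKM in WT. The log2 fold change of *fat-5* was 3.02 in *daf-2(−)* against WT (SE 0.33, adjusted p = 0.00363 in limma) and -2.34 in the double mutant against *daf-2(−)* (adjusted p = 0.00263).

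*acs-2*, an acyl-CoA synthetase gene of mitochondrial fatty acid oxidation, was listed at 21.1 and 17.8 RPKM in the double mutant, 129 and 128 RPKM in *daf-2(−)* and 40.1 and 44.6 RPKM in WT. The log2 fold change was 1.58 in *daf-2(−)* against WT (adjusted p = 0.00222 in limma) and -2.67 in the double mutant against *daf-2(−)* (adjusted p = 0.00033). It was the only gene of the 4 lists called in the double mutant against WT, at -1.09 (unadjusted call, adjusted p = 0.0605 in limma), and at -0.97 without double mutant replicate 2.

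*hacd-1*, a hydroxyacyl-CoA dehydrogenase gene, was listed at 49.9 and 61.2 RPKM in the double mutant, 285 and 321 RPKM in *daf-2(−)* and 81.6 and 136 RPKM in WT. *fmo-2*, a flavin monooxygenase gene, was listed at 1.82 and 1.70 RPKM in the double mutant, 8.02 and 7.84 RPKM in *daf-2(−)* and 1.25 and 1.54 RPKM in WT. Both genes were highest in *daf-2(−)*. In *daf-2(−)* against WT the log2 fold change was 1.51 for *hacd-1* and 1.90 for *fmo-2* (adjusted p = 0.0103 and 0.00415 in limma), and in the double mutant against *daf-2(−)* it was -2.43 for *hacd-1* and -1.69 for *fmo-2* (adjusted p = 0.00151 and 0.0022). The desaturase gene *fat-6* differed by 0.76 in *daf-2(−)* against WT and -0.83 in the double mutant against *daf-2(−)* on the log2 scale, short of the fold threshold. In the same comparisons the other uncalled targets differed by 0.70 and -0.83 (*ech-1*), -0.24 and 0.13 (*fat-7*) and -0.18 and 0.95 (*cpt-5*). Thus *fat-7* and *cpt-5* went the other way.

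Of 6 acyl-CoA binding protein genes, whose products carry activated fatty acids, 1 rose and 0 fell in *daf-2(−)* against WT (4.84% and 7.77% of all genes). In the double mutant against *daf-2(−)*, 2 fell and 0 rose (5.65% and 15.8% of all genes). *maa-1* was listed at 9.18 and 11.6 RPKM in the double mutant, 29.5 and 23.9 RPKM in *daf-2(−)* and 10.6 and 12.1 RPKM in WT. On the log2 scale *maa-1* differed by 1.16 in *daf-2(−)* against WT (adjusted p = 0.0119 in limma) and -1.28 in the double mutant against *daf-2(−)* (adjusted p = 0.00386). *acbp-1* was at 478 and 512 RPKM in the double mutant, 1015 and 1169 RPKM in *daf-2(−)* and 640 and 584 RPKM in WT. It fell in the double mutant against *daf-2(−)*, at -1.14 (adjusted p = 0.0022 in limma), and was at -0.61 after quantile normalization. The list's median log2 fold changes were 0.36 and -0.40.

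Of 7 measured genes of fat storage and lipolysis at the lipid droplet, 0 were called in *daf-2(−)* against WT. Over all genes, 4.84% rose and 7.77% fell there. In the double mutant against *daf-2(−)*, 1 rose and 0 fell (15.8% and 5.65% of all genes). That gene was C46C11.1, the hormone-sensitive lipase homologue *hosl-1*, listed at 7.03 and 7.78 RPKM in the double mutant, 3.28 and 2.75 RPKM in *daf-2(−)* and 6.79 and 7.08 RPKM in WT. The *daf-2(−)* libraries were the lowest for it. Against *daf-2(−)*, the double mutant differed by 1.07 on the log2 scale (adjusted p = 0.00901 in limma), and it was 0.72 after median-ratio scaling, 0.81 after quantile normalization and 0.97 without *daf-2(−)* replicate 2. The list's median log2 fold changes were 0.19 and 0.23.

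**Figure D4:**
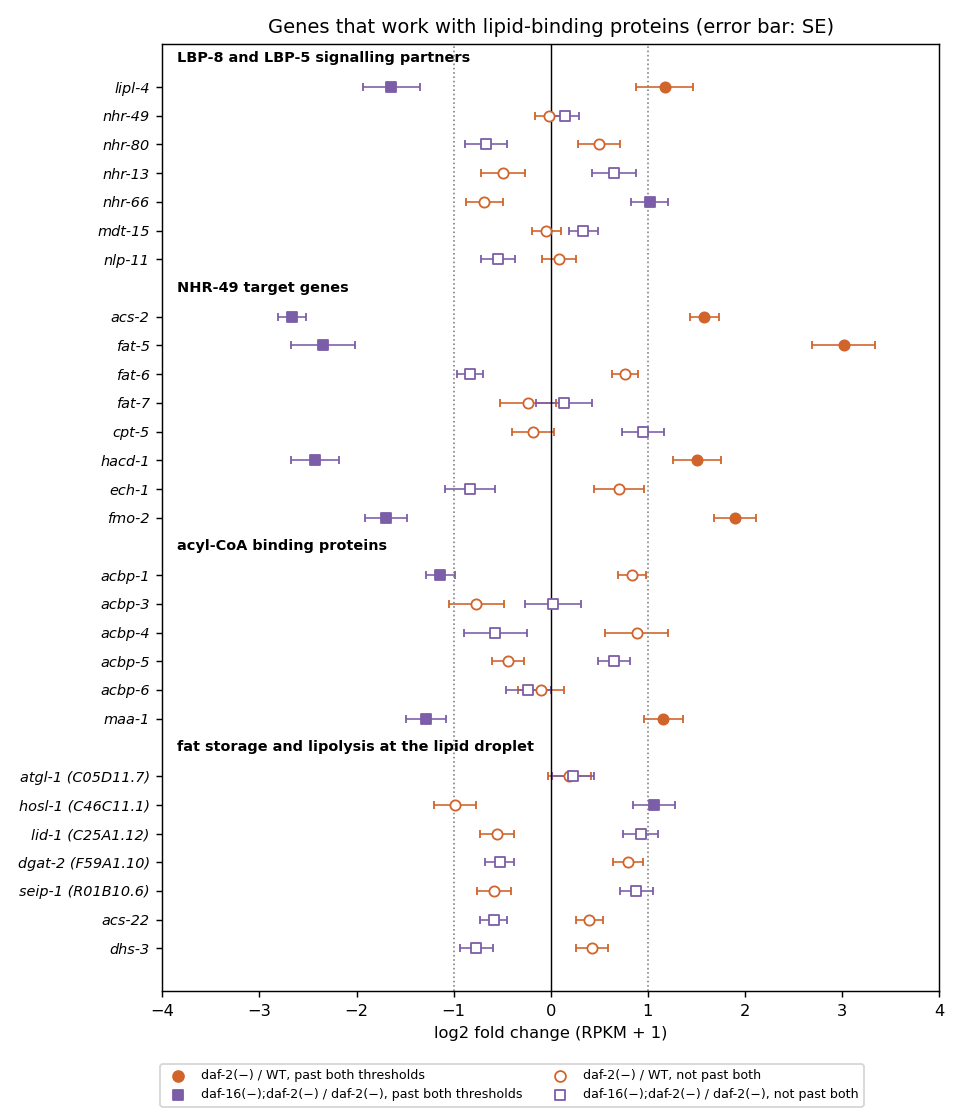
Log2 fold change on the log2(RPKM + 1) scale (horizontal axis) of the 28 measured genes of 4 lists, in *daf-2(−)* against WT (circles) and the double mutant against *daf-2(−)* (squares), with the SE of limma as error bar; filled symbols passed the fold and p thresholds. The filled symbols gather among the NHR-49 targets, where *acs-2*, *fat-5*, *hacd-1* and *fmo-2* lie to the right for the circles and to the left for the squares.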

How the data were processed

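RNA-seq libraries of the 3 strains, 2 replicates each, were analysed as gene values. The authors sequenced TruSeq libraries on an Illumina GAIIx, demultiplexed them (CASAVA 1.8.2 is listed in the submitters' processing notes), trimmed adaptors, aligned reads to the annotated worm genome in CLC Genomics Workbench and deposited RPKM values per gene with default parameters. How reads matching several genes were treated, and any use of strand, is not given in the sources used here. Scaling by the mapped reads leaves each value dependent on the rest of its library. RPKM hold no counts, so the beta-binomial test of the study was not run, and low values did not give back whole reads (38.8% to 55.3% lay within 0.1 of a whole multiple), so no depth is given.

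The 3 tables were joined by gene name, digit-grouping commas were removed, and 6 names that stand on more than 1 line were left out. log2(RPKM + 1) was fitted in R 4.3.3 with limma 3.58.1 (variance trend on mean, 1 fit over 6 libraries, 3.86 prior degrees of freedom), and p-values were adjusted over 20661 genes by Benjamini-Hochberg. The pseudocount of 1 shrinks fold changes of weak genes such as *lipl-4*. The thresholds were a fold change of at least 2 and an unadjusted p of at most 0.05, as in the study.

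All 9 members are described. Of each list up to 4 called genes could be named, those with the largest change first. The genes *nhr-49*, *nhr-80*, *fat-6*, *ech-1*, *fat-7* and *cpt-5*, which were not called, were added after their values were seen. The nearest genes are the 3 with the smallest profile distance to the 2 called members with the largest change. The members and lists were chosen with earlier results of these data known. Of 30 genes in the 4 lipid lists 28 were matched, 5 by sequence name, and *gei-7* and *plin-1* were not. Annotation came from WBcel235. The alternatives were pseudocounts of 0.1 and 0.5, 2 filters on low values, 2 other scalings, adjusted p, no trend, separate fits, a replicate block and each library left out. Libraries of the same replicate number were not treated as pairs in the main fit. Their deviations correlated at -0.16 between the double mutant and *daf-2(−)*, 0.16 between the double mutant and WT and 0.11 between *daf-2(−)* and WT. With 2 replicates per strain these values cannot show whether same-numbered samples were prepared together.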

Additional observations from a re-analysis of the deposited data

How the results depend on the processing

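Each value of the members was recomputed under 16 alternatives per comparison. Of the resulting values 415 kept their direction and their side of the thresholds, 3 fell short of a threshold, 3 passed one and 11 turned sign, none of them a called value. The count of members called higher in *daf-2(−)* against WT, 2, was 1 under quantile normalization, where *lbp-1* was at 0.80, and 1 to 2 when each library was left out in turn. The low value came without WT replicate 1 (*lbp-1* at 0.94). *lbp-8* kept its calls throughout, and the 3 members called lower in the double mutant against *daf-2(−)* lost only *lbp-6*, at -0.97 under quantile normalization. Median-ratio scaling put *lbp-6* at 1.20 in *daf-2(−)* against WT and *lbp-2* at -1.20 in the double mutant against *daf-2(−)*.

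Signs turned for *lbp-2* in *daf-2(−)* against WT (-0.027, quantile normalization), *lbp-5* in the same comparison (0.11, median-ratio scaling), and *lbp-3* and *lbp-4* in the double mutant against *daf-2(−)* (-0.16 and -0.0057, median-ratio scaling). Leaving out single libraries gave ranges of -0.59 to 0.23 for *lbp-5* and -0.96 to 0.13 for *lbp-7* in the double mutant against *daf-2(−)*. In the double mutant against WT the ranges were -0.65 to 0.018 for *lbp-2*, -0.34 to 0.11 for *lbp-3*, -0.75 to 0.079 for *lbp-4*, -0.78 to 0.036 for *lbp-5* and -0.76 to 0.33 for *lbp-7*. The high end came in each case without double mutant replicate 1. The cause was not tested.

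The scaling sets the balance of all calls: 38.3% were higher in *daf-2(−)* against WT, 73.7% in the double mutant against *daf-2(−)* and 65.9% in the double mutant against WT, while median-ratio scaling gave 69.6%, 43.3% and 47.8% and quantile normalization 60.6%, 49.5% and 49.9% for these comparisons. A fit with the replicate number as a block called 2 members higher and 0 lower in *daf-2(−)* against WT, and 0 higher and 3 lower in the double mutant against *daf-2(−)*, and changed no call of a member. With 2 libraries per strain the calls lean on the spread shared over strains and genes.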
